A study of Mus musculus with 160 samples.

Results

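Visceral fat of DBA/2J mice was compared with visceral fat of C57BL/6J, A/J and SJL mice. All 4 are inbred strains, and the animals were males. The DBA/2J group held 8 libraries, the other strains 24 (8 each), of 160 libraries in the whole series, which also covers subcutaneous fat, brown fat, liver and quadriceps muscle. Libraries were assigned by the tissue, strain and mouse number in their titles, and no measured value was used. Every mouse ate chow until 12 weeks of age and was killed at 18 weeks, after 6 weeks on a mouse form of 1 of 4 human diets, named American, Mediterranean, vegetarian and vegan. The diets had equal energy and macronutrients from different sources. Each strain had 2 mice on each diet, so no group ate chow throughout. RNA from pulverised frozen tissue was read as stranded polyadenylated libraries, and p-values measure the spread between mice.

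Visceral fat stores triglyceride in adipocytes, which also release hormones such as adiponectin and leptin. Around the adipocytes lie progenitors that lay down collagen, blood vessels, macrophages and lymphocytes, and the depot is covered by mesothelium. In mice the depot most often sampled lies against the epididymis. In bulk tissue, fewer cells of a type and less RNA per cell cannot be told apart. DBA/2J is best known for natural defects in immune and pigment genes, several of which are described here.

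Library totals were 22.4 to 47.8 M counts in DBA/2J (median 24.4 M) and 20.5 to 54.8 M in the others (median 24.1 M). Levels are CPM, counts scaled to library size with TMM factors. The 16 pairs of libraries from 1 strain and diet differed by a median chi-square per gene of 1.52 to 29.5, above the 0.455 of sampling noise, so no library was treated as a copy. Wt1, a transcription factor of the mesothelium, was at 10.9 to 18.3 CPM (median 13.6) in DBA/2J libraries, against 0 to 21.7 CPM (median 14.6) in the others. The 0 belongs to SJL mouse 50, whose library also held 14.1 CPM of Hoxc10, a gene of subcutaneous fat, against 18.0 CPM in C57BL/6J mouse 2 and at most 8.59 CPM in the rest. Alb, the liver's plasma albumin, passed 10% of its liver mean in 1 DBA/2J library (mouse 45) and in 8 others, reaching 62.2% in C57BL/6J mouse 13. Adam7, an epididymis gene, stood at 142 CPM in the library of DBA/2J mouse 39 and at most 3.91 CPM in the other strains. Results were recomputed without these 9 Alb-rich libraries and mice 39 and 50, that is with 6 DBA/2J and 15 other libraries.

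**Figure D1:**
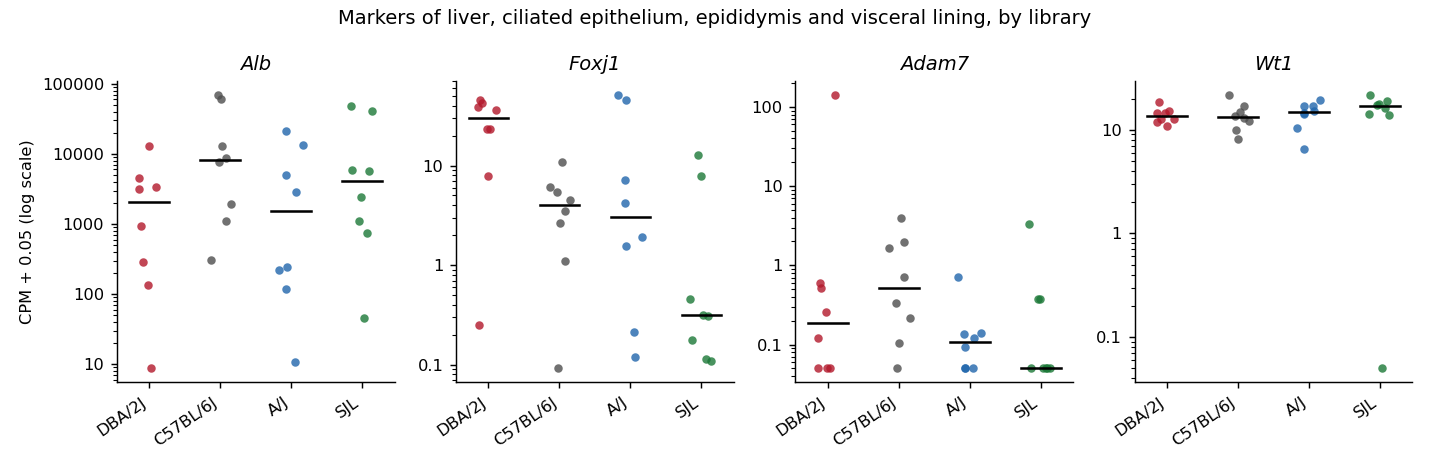
CPM plus 0.05 (log axis) of 4 marker genes in each visceral fat library, by strain; points are libraries and black lines medians. Alb spread over orders of magnitude in every strain, Foxj1 was high in 6 of 8 DBA/2J libraries and in 2 A/J libraries, Adam7 was high in 1 DBA/2J library, and Wt1 was missing from 1 SJL library.

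Foxj1, the regulator of motile cilia, was at 0.201 to 45.6 CPM (median 29.9) in DBA/2J libraries, against 0.0419 to 51.3 CPM (median 2.23) in the others. It was at 23.1 CPM or more in 6 of 8 DBA/2J libraries and in 2 of 24 others, both A/J. Its difference passed narrowly (log2 difference 2.79, adjusted p = 0.0259), and not without DBA/2J mouse 43 or without DBA/2J mouse 48 (adjusted p = 0.0504 and 0.0508). Of the 12 ciliated cell markers, 9 were higher in DBA/2J, with a summed level of 12.8 to 146 CPM in DBA/2J, against 6.96 to 170.4 CPM in the others, and 0 of 12 passed without the 11 libraries. Of the epididymis markers, 5 of 14 tested passed, or 2 of 8 without the 11 libraries. None of the 12 muscle markers, 20 T cell markers or 15 mesothelial markers tested passed in either direction, and without the 11 libraries 3 mesothelial markers were lower (Upk1b, Muc16 and Gpc3).

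Of 22715 genes tested, 6212 (27.3%) differed between DBA/2J and the mean of the other strains at an adjusted p under 0.05 in edgeR's quasi-likelihood test with diet in the model. Of these 3400 (15%) were higher and 2812 (12.4%) lower. These 2 shares are the background for every list count in visceral fat given below without another scale or setting. Against single strains the counts were 4350 (19.2%) against C57BL/6J, 4296 (18.9%) against A/J and 6050 (26.6%) against SJL. A gene is called apart here when DBA/2J differed in 1 direction from the mean and from each of the 3 strains. That held for 774 higher genes (3.41%) and 624 lower genes (2.75%), or 1208 and 145 in limma on log2(TPM + 1), where TPM are the deposited length-scaled values. In 153 higher genes (0.674%) and 85 lower genes (0.374%) the 8 DBA/2J libraries did not overlap the 24 others. Without the 11 libraries 5275 of 23207 genes (22.7%) were called, 12.9% higher and 9.88% lower, and 351 higher and 310 lower genes were apart in both fits. With the level of Foxj1 as a covariate, added after the data were seen, 3244 genes were called, 3124 of them among the 6212. The median log2 difference over all genes was -0.05. With limma on log2(TPM + 1) that median was 0.17, and 4918 genes were called higher and 732 lower, so the sign of small differences depends on the scale. Values on that scale are given as the TPM scale. Its own shares, 4918 higher and 732 lower of 19547 genes tested, are the background for list counts on it. DBA/2J reads, like those of A/J and SJL, were aligned with a relaxed mismatch penalty and C57BL/6J reads were not, so in the comparison with C57BL/6J strain and alignment setting cannot be told apart.

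Among the 15 genes most raised in DBA/2J were genes known from neurons, such as Brinp2 and Ncan, and from myeloid cells, such as S100a8 and Olr1. Brinp2, a secreted protein of neurons that restrains cell division (chromosome 1, 158072777 to 158184051 on GRCm39), was at 32.1 to 49.9 CPM (median 39.5) in DBA/2J libraries, against 0 to 5.45 CPM (median 0.239) in the others (log2 difference 6.58, SE 0.481, adjusted p = 1.41e-10). Mrap2, an accessory protein of melanocortin receptors that bears on energy balance, was at 11.6 to 19.9 CPM (median 16.5) in DBA/2J libraries, against 0 to 6.72 CPM (median 0.123) in the others (log2 difference 5.87, SE 0.622, adjusted p = 8.41e-08). In both genes every DBA/2J library stood above every other library. Rufy4, which promotes autophagy in dendritic cells (chromosome 1, 74164695 to 74187947), was at 88.4 to 139 CPM (median 121) in DBA/2J libraries, against 3.79 to 28 CPM (median 5.98) in the others (log2 difference 3.97, SE 0.211, adjusted p = 1.94e-13). Folh1, a carboxypeptidase that cleaves glutamate from folates, was at 48 to 102 CPM (median 64.2) in DBA/2J libraries, against 0.892 to 25.1 CPM (median 5.09) in the others (log2 difference 3.52, SE 0.271, adjusted p = 2.92e-10). Neither gene overlapped between the groups, and the nearest other library was A/J mouse 25 in both.

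Among immune genes, S100a8, a subunit of the neutrophil protein calprotectin, was at 8.62 to 32.9 CPM (median 21.9) in DBA/2J libraries, against 0.633 to 10.1 CPM (median 1.51) in the others (log2 difference 3.44, SE 0.284, adjusted p = 9.51e-10). Olr1, a receptor for oxidised lipoprotein, was at 3.48 to 15.1 CPM (median 7.36) in DBA/2J libraries, against 0.132 to 2.5 CPM (median 0.637) in the others (log2 difference 3.44, SE 0.268, adjusted p = 2.92e-10). Ptx3, a secreted pattern recognition protein, was at 9.64 to 47.7 CPM (median 30.4) in DBA/2J libraries, against 0.872 to 11.8 CPM (median 4.14) in the others (log2 difference 2.91, SE 0.279, adjusted p = 1.26e-08). In S100a8 and Ptx3 the lowest DBA/2J library fell within the range of the others, whereas Olr1 did not overlap. Rnase2a, an eosinophil ribonuclease with near-identical relatives, ranged widely, at 33.3 to 249 CPM (median 75.7) in DBA/2J libraries, against 0.379 to 23.8 CPM (median 6.28) in the others (log2 difference 4.04, SE 0.453, adjusted p = 2.25e-07), and its highest DBA/2J library was mouse 40. Bst1, an enzyme of NAD breakdown on myeloid and stromal cells, was at 12.4 to 23.1 CPM (median 20.0) in DBA/2J libraries, against 0.337 to 20.8 CPM (median 4.78) in the others (log2 difference 2.44, SE 0.219, adjusted p = 3.38e-09), and SJL mouse 50 alone among the others reached the DBA/2J range. Sirpb1c, an immune receptor of a multi-copy family, had a median of 7.33 CPM in DBA/2J, against 0.713 CPM in the others (log2 difference 3.06, SE 0.274, adjusted p = 3.18e-09).

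The rest of the 15 largest rises were Pnpla5, a lipase of the family of the adipocyte triglyceride lipase, Kcnj14, an inward rectifier potassium channel, Ncan, a proteoglycan of brain matrix, Cdkl4, a kinase (log2 difference 3.14, adjusted p = 1.9e-07), and Tpm3-rs7, a tropomyosin copy. Pnpla5 was at 1.74 to 5.74 CPM (median 4.83) in DBA/2J libraries, against 0 to 0.957 CPM (median 0.273) in the others (log2 difference 3.77, SE 0.289, adjusted p = 2.17e-10). Kcnj14 had a median of 63.1 CPM in DBA/2J, against 10.2 CPM in the others (log2 difference 3.07, adjusted p = 1.93e-09), and A/J was nearest to DBA/2J with a median of 21.5 CPM. Ncan had a median of 93.2 CPM in DBA/2J, against 7.96 CPM in the others (log2 difference 2.94, adjusted p = 5.55e-06), and C57BL/6J was nearest with 17 CPM. Tpm3-rs7 stood at 114 to 151 CPM (median 136) in DBA/2J libraries, against 9.81 to 40.0 CPM (median 11.9) in the others (log2 difference 3.20, adjusted p = 2.18e-12); it shares sequence with Tpm3, so its level is uncertain.

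The largest falls included the adipocyte product Cfd. Tmem45b, a membrane protein (chromosome 9, 31336135 to 31376412), was at 3.02 to 40.0 CPM (median 12) in DBA/2J libraries, against 156 to 1012 CPM (median 358) in the others (log2 difference -4.62, SE 0.434, adjusted p = 9.2e-09). Zfp970 and Zfp984 are KRAB zinc finger genes, a family of repressors with many close copies. Zfp970 (chromosome 2, 177156498 to 177183583) was at 0 to 3.22 CPM (median 0.962) in DBA/2J libraries, against 10.5 to 73.4 CPM (median 32.7) in the others (log2 difference -5.27, SE 0.528, adjusted p = 3.19e-08), and Zfp984 was at 0.991 to 2.02 CPM (median 1.16) in DBA/2J libraries, against 3.14 to 17.5 CPM (median 12.1) in the others (log2 difference -2.87, SE 0.159, adjusted p = 3.33e-13). In these 3 genes every DBA/2J library lay below every other library. Eci3, a peroxisomal enzyme of unsaturated fatty acid breakdown, was at 0.327 to 1.61 CPM (median 0.74) in DBA/2J libraries, against 2.7 to 19 CPM (median 7.51) in the others (log2 difference -3.07, SE 0.282, adjusted p = 5.07e-09), also without overlap. Cfd, the complement protease adipsin made by adipocytes, was at 587 to 1288 CPM (median 739) in DBA/2J libraries, against 898 to 10837 CPM (median 3658) in the others (log2 difference -2.21, SE 0.355, adjusted p = 3.46e-05). The 3 highest DBA/2J libraries overlapped the 2 lowest others, both C57BL/6J.

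Among the 15 largest falls were also an inflammasome sensor, a globin and several enzymes. Pde11a, a phosphodiesterase of cyclic nucleotides, had a median of 0.306 CPM in DBA/2J, against 1.62 CPM in the others (log2 difference -2.70, adjusted p = 6.91e-07), and Btnl2, an inhibitory butyrophilin, a median of 0.203 CPM in DBA/2J, against 1.64 CPM in the others (log2 difference -2.89, adjusted p = 5.58e-08). Fggy, a carbohydrate kinase, was at 6.03 to 14.5 CPM (median 10.6) in DBA/2J libraries, against 17.4 to 93.2 CPM (median 38.5) in the others (log2 difference -2.04, adjusted p = 5.77e-07). Nlrp1b, the inflammasome sensor of anthrax lethal factor, was at 0.403 to 0.976 CPM (median 0.743) in DBA/2J libraries, against 1.27 to 5.91 CPM (median 2.61) in the others (log2 difference -1.95, adjusted p = 1.33e-08). In these 2 genes no library overlapped between DBA/2J and the others. Lrrc4c, a synaptic adhesion protein, had a median of 1.99 CPM in DBA/2J, against 11.6 CPM in the others (log2 difference -2.15, adjusted p = 1.56e-08), with SJL nearest at 3.92 CPM. Inmt, a methyltransferase of small amines, had a median of 19.1 CPM in DBA/2J, against 68.4 CPM in the others (log2 difference -2.07, adjusted p = 0.00033), and Klk8, a secreted protease, a median of 0.255 CPM in DBA/2J, against 1.25 CPM in the others (log2 difference -2.23, adjusted p = 0.000109). Hba-a2, an alpha globin gene with a near-identical copy, had a median of 1.57 CPM in DBA/2J, against 15.7 CPM in the others (log2 difference -3.20, adjusted p = 0.000156). Its medians were 57.9 CPM in C57BL/6J, 11.9 CPM in A/J and 6.66 CPM in SJL. The lowest A/J and SJL libraries, at 3.12 and 0.793 CPM, lay within the DBA/2J range of 0.234 to 4.83 CPM.

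**Figure D2:**
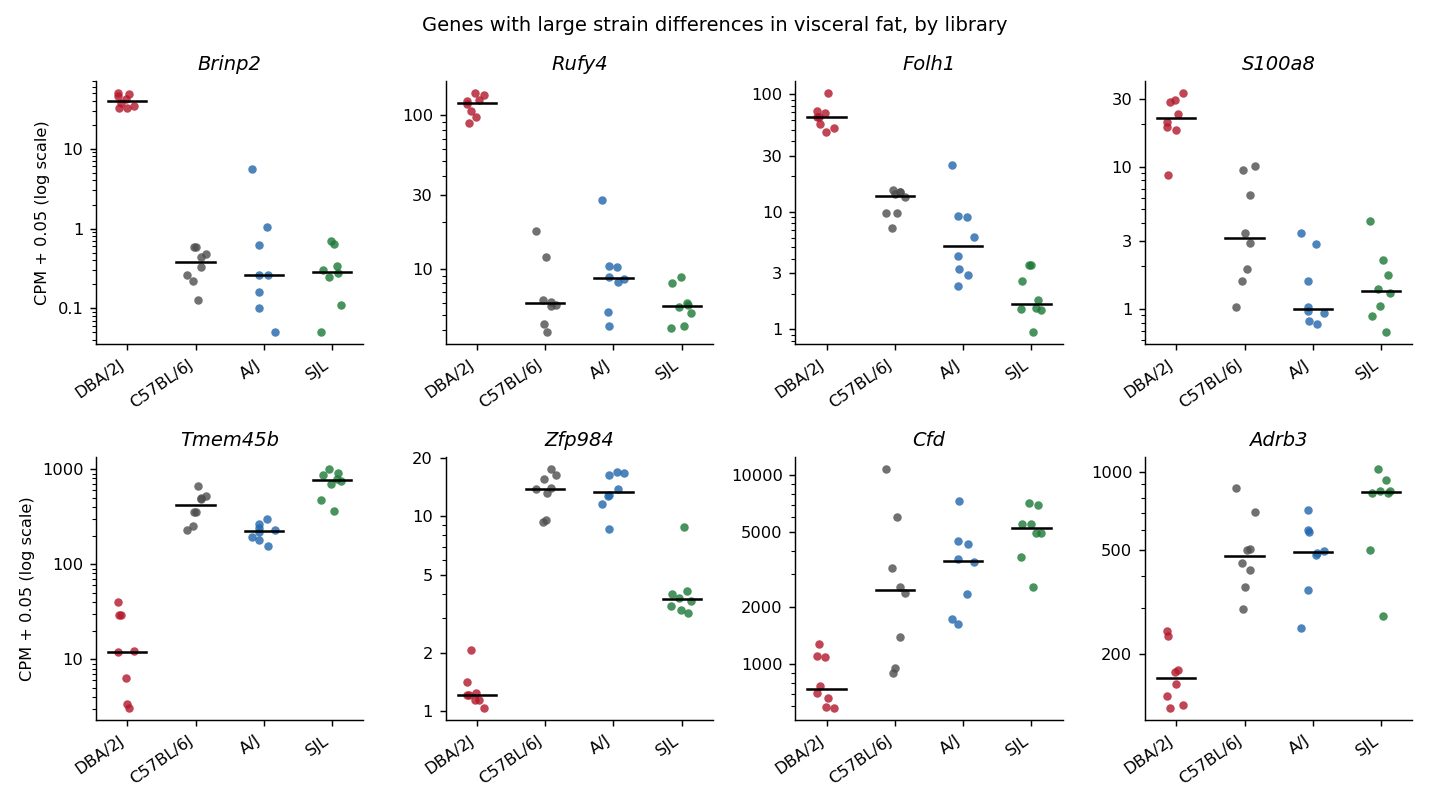
CPM plus 0.05 (log axis) of 4 raised and 4 lowered genes in each visceral fat library, by strain; points are libraries and lines medians. The 8 DBA/2J libraries stood apart from all 24 others in Brinp2, Rufy4, Folh1, Tmem45b, Zfp984 and Adrb3, whereas 1 DBA/2J library overlapped 2 others in S100a8 and 3 overlapped 2 others in Cfd.

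Genes that define the mature adipocyte were partly lower in DBA/2J. Of 20 tested, 1 was higher and 7 were lower (background 15% and 12.4%), with a median log2 difference of -0.22, and 8 were lower without the 11 libraries. On the TPM scale the median was 0.05 (0.17 over all genes), with 3 higher and 5 lower. Over all 19547 genes tested on that scale 4918 were higher and 732 lower. Adrb3, the receptor through which noradrenaline starts lipolysis, was at 123 to 245 CPM (median 161) in DBA/2J libraries, against 251 to 1033 CPM (median 504) in the others (log2 difference -1.79, SE 0.211, adjusted p = 3.84e-07), and all 8 DBA/2J libraries lay below all 24 others. Retn, the hormone resistin, was at 249 to 385 CPM (median 293) in DBA/2J libraries, against 338 to 1446 CPM (median 830.5) in the others (log2 difference -1.50, SE 0.229, adjusted p = 1.76e-05). Adipoq, the insulin-sensitising hormone adiponectin, was at 1057 to 1807 CPM (median 1336) in DBA/2J libraries, against 1006 to 4308 CPM (median 2444) in the others (log2 difference -0.83, SE 0.194, adjusted p = 0.00221), and did not pass in limma on the TPM scale (log2 difference -0.53, adjusted p = 0.0979). Ffar4, a receptor for long-chain fatty acids, had a median of 7.99 CPM in DBA/2J, against 16.6 CPM in the others (log2 difference -1.03, adjusted p = 4.84e-05). The core regulator Pparg did not pass (log2 -0.12, adjusted p = 0.637), nor did the droplet coat gene Plin1 (log2 -0.13, adjusted p = 0.475). Lep, the satiety hormone leptin, was at 1888 to 2832 CPM (median 2413) in DBA/2J libraries, against 439 to 3299 CPM (median 1669) in the others and did not pass (log2 0.64, adjusted p = 0.0617). In Lep all 8 DBA/2J libraries fell within the range of the others, and it passed without SJL mouse 50, 63 or 64 (log2 difference 0.60 to 0.70).

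Of 20 genes for secreted fat products 5 were higher and 8 lower, or 6 and 5 on the TPM scale. Metrnl, a secreted factor of fat and muscle, was at 32.3 to 46 CPM (median 39.2) in DBA/2J libraries, against 13.3 to 31.6 CPM (median 19.7) in the others (log2 difference 0.87, SE 0.133, adjusted p = 1.87e-05), with no overlap. Lcn2, the iron-scavenging lipocalin made by neutrophils and adipocytes, was at 61 to 261 CPM (median 97.1) in DBA/2J libraries, against 1.39 to 280.4 CPM (median 13.7) in the others (log2 difference 2.60, SE 0.533, adjusted p = 0.000659), and the highest DBA/2J value belonged to mouse 39 and the highest other value to SJL mouse 57. Apoe (log2 difference -1.38, adjusted p = 0.00396), Rbp4 (log2 difference -1.54, adjusted p = 0.0125) and Trf (log2 difference -1.46, adjusted p = 0.0172), all abundant in liver, also passed as lower. The 15 liver markers had a median log2 difference of -1.94, with Cyp2e1 called lower and Hp higher, and their part in these falls was not tested. Without the 11 libraries Apoe had a log2 difference -0.95, adjusted p = 0.00269, Rbp4 a log2 difference -1.01, adjusted p = 0.0166 and Trf a log2 difference -0.92, adjusted p = 0.0159. Without the 9 Alb-rich libraries alone Trf did not pass (log2 difference -0.80, adjusted p = 0.0646). With Foxj1 as a covariate none of the 3 passed, with adjusted p of 0.118 for Apoe, 0.284 for Rbp4 and 0.36 for Trf.

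Enzymes of fat synthesis and glucose use were lower in part. Of 25 fat synthesis genes 1 was higher and 8 lower, and without the 11 libraries 4 were higher and 6 lower. On the TPM scale 5 were higher and 5 lower. Mogat1, which makes diacylglycerol, was at 6.24 to 13 CPM (median 8.39) in DBA/2J libraries, against 8.48 to 43 CPM (median 26.7) in the others (log2 difference -1.54, SE 0.221, adjusted p = 7.39e-06). Me1, which supplies NADPH, had a median of 207 CPM in DBA/2J, against 298 CPM in the others (log2 difference -0.83, adjusted p = 4.93e-05), Thrsp, a lipogenic nuclear protein, a median of 291 CPM in DBA/2J, against 542 CPM in the others (log2 difference -1.03, adjusted p = 0.00436), and Srebf1, the lipogenic regulator, a median of 307 CPM in DBA/2J, against 396 CPM in the others (log2 difference -0.41, adjusted p = 0.0012). Thrsp did not differ past the threshold from A/J (adjusted p = 0.0675) or SJL (adjusted p = 0.209). Me1 did not from SJL (adjusted p = 0.126), nor Srebf1 from A/J (adjusted p = 0.402). Of the 25 genes 1 was apart as lower. Fasn, the fatty acid synthase, did not pass (log2 0.34, adjusted p = 0.395), and was higher without the 11 libraries (log2 difference 0.66, adjusted p = 0.0141). Of 21 insulin and glucose genes 2 were higher and 8 lower, or 2 and 3 on the TPM scale. Pck1, which makes glycerol phosphate for triglyceride in fat, was at 476 to 1473 CPM (median 672) in DBA/2J libraries, against 367 to 5336 CPM (median 2007) in the others (log2 difference -1.56, SE 0.248, adjusted p = 3.16e-05). Irs1, the main docking protein of the insulin receptor, was at 15.8 to 37.1 CPM (median 22.4) in DBA/2J libraries, against 23.8 to 87.2 CPM (median 49.5) in the others (log2 difference -1.04, SE 0.172, adjusted p = 5.29e-05), and Insr, the receptor itself, had a median of 103 CPM in DBA/2J, against 138 CPM in the others (log2 difference -0.43, adjusted p = 0.00513). Without the 11 libraries Insr no longer passed (log2 difference -0.25, adjusted p = 0.128).

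Respiratory chain, mitochondrial genome and fatty acid oxidation genes that passed were lower in DBA/2J, but no call in the respiratory chain or mitochondrial genome lists held on the TPM scale or with Foxj1 as a covariate. Of 28 nuclear genes of the respiratory chain 11 were lower and 0 higher (background 12.4% and 15%), with a median log2 difference of -0.41, and 17 were lower without the 11 libraries. However, 0 of the 28 were apart, that is lower than in each of the 3 strains. Ndufb8, a subunit of complex I, had a median of 98.2 CPM in DBA/2J, against 138 CPM in the others (log2 difference -0.49, adjusted p = 0.00814), and Cox5b, a subunit of cytochrome oxidase, a median of 81 CPM in DBA/2J, against 121 CPM in the others (log2 difference -0.48, adjusted p = 0.0102). Of the 13 protein genes of the mitochondrial genome 6 were lower, 2 of them apart (median log2 difference -0.49). The medians of both lists stayed below 0 on the TPM scale, at -0.13 for the respiratory chain and -0.25 for the mitochondrial genome (0.17 over all genes). Mt-Cytb, the cytochrome b subunit, had a median of 5773 CPM in DBA/2J, against 8003 CPM in the others (log2 difference -0.62, adjusted p = 0.0124). The overlapping mt-Nd5 and mt-Nd6 were also lower, but lie on opposite strands and the strand setting of the counting is not given. Of 28 genes of fatty acid oxidation 9 were lower and 0 higher, or 5 lower without the 11 libraries, 3 on the TPM scale and 1 with Foxj1 as a covariate. Only 1 of the 28 was apart. Eci1, an isomerase for unsaturated fatty acids, was at 48.7 to 65.4 CPM (median 59.5) in DBA/2J libraries, against 51.8 to 326 CPM (median 112) in the others (log2 difference -0.95, SE 0.215, adjusted p = 0.00149). Ppara, the oxidative regulator abundant in liver, had a median of 6.59 CPM in DBA/2J, against 13.6 CPM in the others (log2 difference -1.93, adjusted p = 0.0208), and did not pass without the 11 libraries (log2 difference -0.71, adjusted p = 0.0986).

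Collagen and matrix genes were higher in DBA/2J, on both scales. Of 29 collagen and matrix genes 23 were higher and 0 lower (background 15% and 12.4%), with a median log2 difference of 0.76, and 25 were higher without the 11 libraries, 25 on the TPM scale and 21 with Foxj1 as a covariate. Their summed level was 22859 to 26086 CPM in DBA/2J (median 25147), against 8633 to 22622 CPM in the others (median 14177). Col5a3, a chain of the fibril-organising collagen V that adipose tissue makes, was at 1235 to 1723 CPM (median 1407) in DBA/2J libraries, against 167 to 1088 CPM (median 572) in the others (log2 difference 1.61, SE 0.119, adjusted p = 1.29e-10). Fbn1, the microfibril protein fibrillin, was at 577 to 912 CPM (median 643) in DBA/2J libraries, against 99.4 to 563 CPM (median 260.4) in the others (log2 difference 1.37, SE 0.164, adjusted p = 4.64e-07). Col5a2, another collagen V chain, was at 423 to 529 CPM (median 468) in DBA/2J libraries, against 97.2 to 332 CPM (median 213) in the others (log2 difference 1.16, SE 0.14, adjusted p = 5.82e-07). The DBA/2J libraries lay above all others in each of these genes. Col3a1, of the reticular fibres, was at 2153 to 2862 CPM (median 2453) in DBA/2J libraries, against 601 to 2184 CPM (median 1221) in the others (log2 difference 1.05, SE 0.128, adjusted p = 6.67e-07), with 1 DBA/2J library within the range of the others. Of the 29 genes 14 were apart as higher (background 3.41%). The genes Dcn, Col18a1, Eln, Thbs1, Mmp14 and Fn1 did not pass, from log2 -0.08 to 0.36.

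Genes of fat progenitors were less uniform. Of 18 tested 6 were higher and 2 lower. Pdgfra, which marks the progenitors as a class, did not pass (log2 0.03, adjusted p = 0.875). Cd55, of a progenitor subset, had a median of 71.9 CPM in DBA/2J, against 50.4 CPM in the others (log2 difference 0.61, adjusted p = 0.00194), whereas F3, tissue factor, was lower at a median of 25.3 CPM in DBA/2J, against 40.9 CPM in the others (log2 difference -0.73, adjusted p = 0.00231). Ccn5, a matrix-cell signalling protein from a list of fat growth genes, was at 43.2 to 82.7 CPM (median 55.1) in DBA/2J libraries, against 5.89 to 29.8 CPM (median 15.5) in the others (log2 difference 1.80, SE 0.195, adjusted p = 9.22e-08), with no overlap. Of 15 endothelial genes 5 were lower and 0 higher, but none passed in limma on the TPM scale. There the median log2 difference was 0.06 (0.17 over all genes), against -0.19 here (-0.05 over all genes). Kdr, the main receptor for vascular endothelial growth factor, was at 108 to 159 CPM (median 132) in DBA/2J libraries, against 131 to 208 CPM (median 176) in the others (log2 difference -0.41, SE 0.0864, adjusted p = 0.000741).

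**Figure D3:**
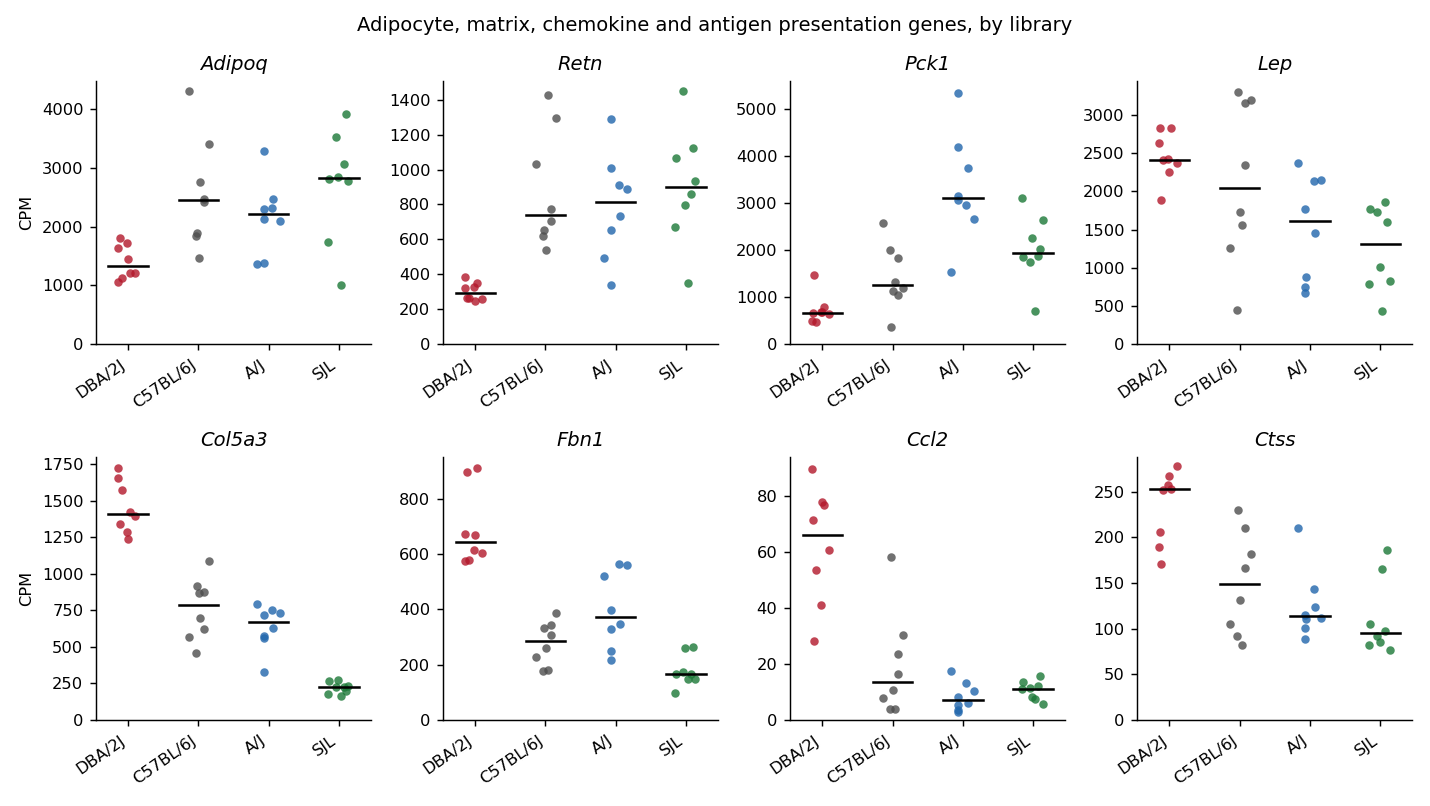
CPM (linear axes starting at 0) of 8 genes in each visceral fat library, by strain; points are libraries and lines medians. Adipoq, Retn and Pck1 had lower medians in DBA/2J with overlap, Lep overlapped widely, Col5a3 and Fbn1 did not overlap, and Ccl2 and Ctss were higher in DBA/2J with overlap.

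Many chemokine and inflammation genes were higher in DBA/2J. Of 24 chemokine and inflammation genes 13 were higher and 1 lower (background 15% and 12.4%), and 12 and 1 without the 11 libraries. Ccl2, which draws monocytes into tissue, was at 28.3 to 89.8 CPM (median 66.1) in DBA/2J libraries, against 2.81 to 58.2 CPM (median 10.6) in the others (log2 difference 2.47, SE 0.308, adjusted p = 1.05e-06). Ccl7, its neighbour with the same receptor, was at 18.4 to 65.3 CPM (median 42) in DBA/2J libraries, against 0.95 to 39.9 CPM (median 6.15) in the others (log2 difference 2.49, SE 0.347, adjusted p = 5.4e-06). C57BL/6J mice 2 and 9 reached into the DBA/2J range for Ccl2, and mouse 2 for Ccl7. Ccl3 (log2 difference 1.19, adjusted p = 0.000127) and Cxcl2 (log2 difference 1.44, adjusted p = 0.000185) were near 1 CPM. The 1 lower member was Cxcl9, a T cell chemokine induced by interferon gamma (log2 difference -0.98, adjusted p = 0.00123). On the TPM scale 14 were higher, and with Foxj1 as a covariate 10.

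Of 20 genes of lipid-associated macrophages 12 were higher and 2 lower, with a median log2 difference of 0.64. Ctsl, a lysosomal protease, was at 849.7 to 1521 CPM (median 1179) in DBA/2J libraries, against 244 to 934 CPM (median 635) in the others (log2 difference 0.93, SE 0.123, adjusted p = 2.38e-06), Fabp5, a fatty acid carrier, had a median of 266 CPM in DBA/2J, against 124 CPM in the others (log2 difference 0.96, adjusted p = 2.38e-06), and Cd9, a tetraspanin, a median of 61 CPM in DBA/2J, against 37.3 CPM in the others (log2 difference 0.60, adjusted p = 4.57e-06). Gpnmb, the member that moved furthest, was lower and is described with the known variants. Of 20 resident macrophage genes 6 were higher and 1 lower (background 15% and 12.4%), and without the 11 libraries 2 and 2. Cd68, a lysosomal protein of macrophages, was at 83.1 to 163 CPM (median 109) in DBA/2J libraries, against 34.1 to 113 CPM (median 62.5) in the others (log2 difference 0.77, SE 0.173, adjusted p = 0.00143), but did not pass without the 11 libraries (log2 difference 0.38, adjusted p = 0.0813), nor did Adgre1 (log2 difference 0.40, adjusted p = 0.0646). Mertk, the receptor by which macrophages engulf dead cells, went the other way, at 10.2 to 15.4 CPM (median 11.3) in DBA/2J libraries, against 14.9 to 55.2 CPM (median 35) in the others (log2 difference -1.55, SE 0.116, adjusted p = 1.41e-10). DBA/2J mouse 40 and SJL mouse 50 alone overlapped.

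Antigen presentation genes of MHC class II were higher in 9 of 13, with none lower (background 15% and 12.4%). Only 1 of the 13 was apart, that is higher than in each of the 3 strains. H2-Ab1, a chain of the class II molecule, had a median of 404 CPM in DBA/2J, against 192 CPM in the others (log2 difference 0.94, adjusted p = 0.000122), and Ctss, the protease that trims its invariant chain, was at 171 to 278 CPM (median 252) in DBA/2J libraries, against 76.4 to 230.0 CPM (median 111) in the others (log2 difference 0.89, SE 0.166, adjusted p = 0.000237). Of 12 neutrophil genes 6 were higher and 1 lower (background 15% and 12.4%). Csf3r, the receptor for granulocyte colony-stimulating factor, had a median of 10.7 CPM in DBA/2J, against 7.59 CPM in the others (log2 difference 0.53, adjusted p = 0.00267), while Mmp9, a granule protease also made by other cells, was lower at a median of 3.35 CPM in DBA/2J, against 8.38 CPM in the others (log2 difference -1.39, adjusted p = 0.00199). With Foxj1 as a covariate 2 were higher, and on the TPM scale 3. The summed neutrophil level was 94.5 to 311 CPM in DBA/2J against 21.7 to 313 CPM in the others.

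Cell cycle genes were higher in 18 of 20 (background 15%), with none lower, a median log2 difference of 0.87, and 13 of 20 without the 11 libraries. With Foxj1 as a covariate 12 were higher, and on the TPM scale 18. Of the 20 genes 9 were apart as higher. Ccnb1, which drives entry into mitosis, was at 1.85 to 7.94 CPM (median 3.74) in DBA/2J libraries, against 0.658 to 3.5 CPM (median 1.76) in the others (log2 difference 1.21, SE 0.211, adjusted p = 0.000104). Bub1, a checkpoint kinase, was at 1.12 to 4.06 CPM (median 2.67) in DBA/2J libraries, against 0.365 to 2.72 CPM (median 0.796) in the others (log2 difference 1.33, SE 0.234, adjusted p = 0.00011). Cenpf, a kinetochore protein, had a median of 5.22 CPM in DBA/2J, against 1.85 CPM in the others (log2 difference 1.38, adjusted p = 0.000206). The groups overlapped in each. Ighm, the IgM heavy chain, was the 1 of 15 B cell genes that passed, at 867 to 1773 CPM (median 1385) in DBA/2J libraries, against 143 to 1327 CPM (median 439.9) in the others (log2 difference 1.53, SE 0.186, adjusted p = 5.99e-07); Cd79a did not pass (log2 0.18, adjusted p = 0.806).

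Interferon-stimulated genes that passed were lower in DBA/2J, with 1 exception. These genes are switched on by the transcription factors that bind the interferon-stimulated response element near their start sites. It was searched as GAAA, any 2 bases and GAAA again. The element lay on either strand, overlapping matches included, in 1131 of 32851 RefSeq promoters (3.44%; 300 bases each, from 250 before the start site to 50 after it), that is in any promoter of 1079 of 27025 genes (3.99%). Of 23 list members with a promoter in that table, 16 held it in any promoter (69.6%). Promoters of the 3 members with the element that had the smallest p among those lower in DBA/2J are printed on the strand of the gene, with the element or its reverse complement in capitals. They come from the RefSeq table for GRCm38.p6, and each matched GRCm39 once, without a mismatch, at the position given. A match describes the letters only.
Trim30d, chr7:104157007-104157306, minus strand: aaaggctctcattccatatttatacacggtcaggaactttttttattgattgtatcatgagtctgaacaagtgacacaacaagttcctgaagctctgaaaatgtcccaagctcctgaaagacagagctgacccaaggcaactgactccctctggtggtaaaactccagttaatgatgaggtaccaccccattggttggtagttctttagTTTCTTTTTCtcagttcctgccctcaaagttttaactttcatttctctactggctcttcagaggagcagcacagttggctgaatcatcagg
Ifit3b, chr19:34585107-34585406, plus strand: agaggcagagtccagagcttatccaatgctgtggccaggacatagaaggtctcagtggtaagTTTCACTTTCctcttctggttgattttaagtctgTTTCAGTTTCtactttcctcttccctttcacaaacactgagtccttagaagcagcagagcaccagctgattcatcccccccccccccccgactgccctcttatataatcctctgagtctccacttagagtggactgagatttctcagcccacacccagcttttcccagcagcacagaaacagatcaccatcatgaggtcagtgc
Oas1a, chr5:121045539-121045838, minus strand: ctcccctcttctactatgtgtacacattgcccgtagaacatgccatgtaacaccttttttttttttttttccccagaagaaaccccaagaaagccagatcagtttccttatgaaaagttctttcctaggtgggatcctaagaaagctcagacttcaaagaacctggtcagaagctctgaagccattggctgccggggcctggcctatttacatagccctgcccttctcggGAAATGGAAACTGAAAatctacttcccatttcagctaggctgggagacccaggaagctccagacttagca

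Of 34 interferon-stimulated genes tested, 20 were lower and 1 higher in DBA/2J (background 12.4% and 15%), with a median log2 difference of -0.45. Only 3 were apart as lower and 1 as higher (background 2.75% and 3.41%), so most did not differ from each of the 3 strains. Without the 11 libraries 15 were lower and 1 higher, and on the TPM scale 5 and 1, with a median of -0.13 (0.17 over all genes). Trim30d, of a multi-copy family of antiviral ligases, was at 0.241 to 1.68 CPM (median 0.542) in DBA/2J libraries, against 0.219 to 15.5 CPM (median 7.27) in the others (log2 difference -2.74, SE 0.389, adjusted p = 6.27e-06). A/J, at a median of 0.456 CPM, did not differ past the threshold from DBA/2J in this gene (log2 -0.36, adjusted p = 0.612). Ifit3b, which binds foreign RNA, was at 4.13 to 6.12 CPM (median 4.9) in DBA/2J libraries, against 5.48 to 16.2 CPM (median 7.46) in the others (log2 difference -0.68, SE 0.132, adjusted p = 0.000315). Oas1a, an RNA-activated enzyme of antiviral defence, had a median of 5.47 CPM in DBA/2J, against 7.49 CPM in the others (log2 difference -0.52, adjusted p = 0.000353). Oasl2, its relative, was at 16.4 to 22 CPM (median 20.9) in DBA/2J libraries, against 18.8 to 45.8 CPM (median 31.6) in the others (log2 difference -0.59, SE 0.107, adjusted p = 0.000137). Xaf1, a pro-apoptotic interferon target, was the 1 member higher, at 38.4 to 43 CPM (median 42.6) in DBA/2J libraries, against 14.7 to 37.3 CPM (median 22.8) in the others (log2 difference 0.78, SE 0.113, adjusted p = 8.53e-06), and did not overlap.

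Antioxidant, clock and sterol genes also differed. Of 33 glutathione genes 13 were lower and 3 higher (background 12.4% and 15%), with and without the 11 libraries, and on the TPM scale 10 lower and 3 higher. Gstt1, a glutathione transferase, was at 30.5 to 63.4 CPM (median 44.2) in DBA/2J libraries, against 40.3 to 219 CPM (median 101) in the others (log2 difference -1.30, SE 0.234, adjusted p = 0.000155), and Mgst3, a membrane-bound one, had a median of 85.6 CPM in DBA/2J, against 151 CPM in the others (log2 difference -0.87, adjusted p = 0.00059). Hmox1, the haem-degrading enzyme, was higher at a median of 65 CPM in DBA/2J, against 40.9 CPM in the others (log2 difference 0.62, adjusted p = 0.00025). Of 19 clock genes 9 were lower and 1 higher (background 12.4% and 15%), or 5 and 1 without the 11 libraries, and on the TPM scale 3 and 4. Tef, a clock output factor, had a median of 64.3 CPM in DBA/2J, against 126 CPM in the others (log2 difference -0.91, adjusted p = 2.14e-05), and Nr1d1, the repressor REV-ERB alpha, a median of 64.8 CPM in DBA/2J, against 122 CPM in the others (log2 difference -0.83, adjusted p = 0.000318). Bmal1, the core activator, did not pass (log2 0.03, adjusted p = 0.907). The hour of tissue collection is not given in the sources used here, so its part was not tested. Of 24 cholesterol synthesis genes 6 were higher and none lower, or 12 higher without the 11 libraries. Hmgcs1, the enzyme that makes HMG-CoA, was at 402 to 720.0 CPM (median 602) in DBA/2J libraries, against 154 to 451 CPM (median 282) in the others (log2 difference 0.97, SE 0.113, adjusted p = 3.04e-07), and Nsdhl, a late enzyme of the pathway, had a median of 117 CPM in DBA/2J, against 59.3 CPM in the others (log2 difference 0.92, adjusted p = 0.000109).

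**Figure D4:**
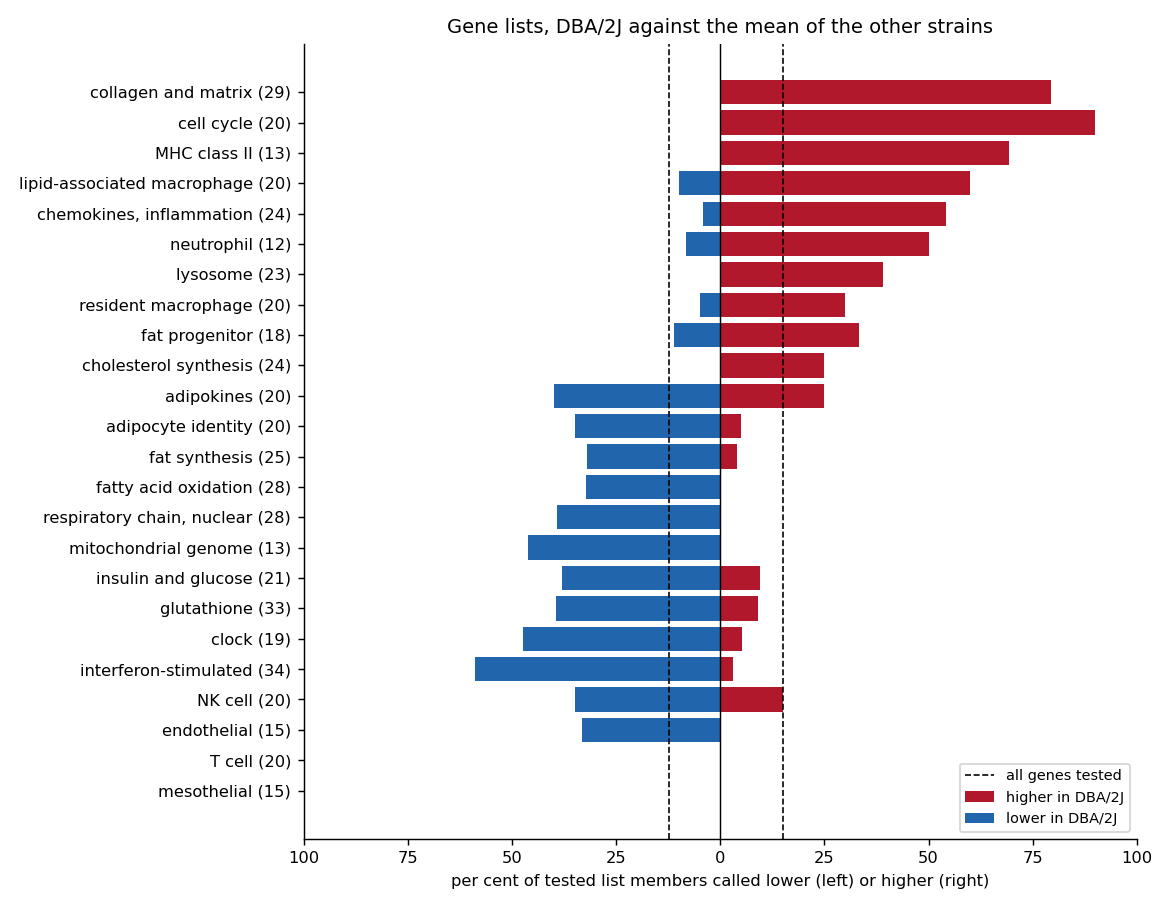
Per cent of each list's tested members called lower (left) or higher (right) in DBA/2J against the mean of the other strains, with the number tested in brackets; dashed lines are the shares over all genes, 12.4% lower and 15% higher. Matrix, cell cycle and MHC class II lists lay to the right, mitochondrial, clock and interferon lists to the left, and T cell and mesothelial lists had no call.

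Of 15 genes with natural variants known in DBA/2J or the other strains, 5 were higher and 4 lower (background 15% and 12.4%). H2-Ea, a class II chain that the haplotypes of C57BL/6J and SJL do not express, was at 246 to 369 CPM (median 307) in DBA/2J libraries, against 0 to 165 CPM (median 4.93) in the others (log2 difference 5.19, SE 0.591, adjusted p = 2.98e-07). By strain the medians were 307 CPM in DBA/2J, 84.5 CPM in A/J, 2 CPM in C57BL/6J and 0.578 CPM in SJL. Over the 6 other libraries of a diet the H2-Ea median was 17.2 CPM on the vegan diet. It was 1.81 to 4.46 CPM on the other diets. Gpnmb, a glycoprotein of melanosomes and lipid-laden macrophages in which DBA/2J carries a nonsense mutation, was at 5.8 to 14.6 CPM (median 8.31) in DBA/2J libraries, against 15.7 to 245 CPM (median 53.8) in the others (log2 difference -2.75, SE 0.418, adjusted p = 1.9e-05), without overlap. Klrd1, the NK receptor chain CD94 that DBA/2J lacks, had a median of 0.229 CPM in DBA/2J, against 1.48 CPM in the others (log2 difference -2.19, SE 0.358, adjusted p = 4.34e-05), and the DBA/2J library of mouse 34 reached 1.41 CPM. Of 20 NK cell genes 7 were lower and 3 higher, or 1 and 3 on the TPM scale, including multi-copy Klra genes. Ifi202b, a DNA-binding interferon-inducible protein known to be hardly expressed in C57BL/6J, was at 45.3 to 93.8 CPM (median 62) in DBA/2J libraries, against 0 to 32.8 CPM (median 14.6) in the others (log2 difference 3.02, SE 0.455, adjusted p = 1.73e-05). On the vegan diet all 6 other libraries, C57BL/6J mice 13 and 16 among them, held at least 7.67 CPM. The lowest other library was at 0 to 0.208 CPM on the other diets. Its relative Ifi203 was lower, at a median of 19.1 CPM in DBA/2J, against 35.5 CPM in the others (log2 difference -0.96, adjusted p = 5.36e-06). Copies in this family make both uncertain. Il3ra, the interleukin 3 receptor chain with a known splicing defect in A/J, had a median of 27.5 CPM in DBA/2J, against 14.4 CPM in the others (log2 difference 0.89, adjusted p = 2.07e-06), and A/J had 19.2 CPM. Nnt, a mitochondrial NADPH-producing enzyme partly deleted in C57BL/6J, had a median of 14.7 CPM in DBA/2J, against 26.8 CPM in the others (log2 difference -0.69, adjusted p = 0.00889), with 14.1 CPM in C57BL/6J. All 6 other vegan libraries, the Alb-rich C57BL/6J mice 13 and 16 among them, held 25.3 CPM or more. On the other diets the lowest other library was at 11.6 to 13.1 CPM. Mrap2 and Tpm3-rs7 also reached their C57BL/6J maxima, 6.72 and 35.5 CPM, on the vegan diet. Why these 2 C57BL/6J libraries differ was not tested. Slc11a1, the macrophage metal transporter of infection resistance, was higher (log2 difference 0.60, adjusted p = 0.000673), and Cdh23, a cadherin of hair cells, lower (log2 difference -0.86, adjusted p = 0.000421). Ltf, lactoferrin, stayed under 2 CPM in every library (log2 difference 1.85, adjusted p = 0.00992) and did not pass without DBA/2J mouse 43 (log2 difference 1.09, adjusted p = 0.119). Hc, Ahr, Glo1, Cd5l, Mx1 and Myo5a did not pass, with adjusted p of 0.0786 or more.

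Runs of neighbouring genes were among those apart in DBA/2J (background 3.41% higher and 2.75% lower). The longest run of higher genes was on chromosome 7 between 3734629 and 4847895 (GRCm39), where 10 of 43 tested genes were apart, among them Pira1, Pira2, Pira12, Pira13 and Lilra6, paired immunoglobulin-like receptors of myeloid cells that are multi-copy. On chromosome 6 between 128586190 and 129484128, 8 of 29 were apart, among them Klrb1a, Clec12a, Clec7a and Olr1 of the NK gene complex. On chromosome 7 between 98851573 and 101061794, 8 of 51 were apart, among them Kcne3, a potassium channel subunit with the smallest adjusted p of all genes (4.82e-15), and Ucp2, a mitochondrial carrier. Of lower genes, 7 of 12 were apart on chromosome 13 between 119564882 and 120253170, and 7 of 42 on chromosome 3 between 88593098 and 89322540. These runs were chosen after their values were seen.

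Few genes passed a test of whether the DBA/2J difference varied with diet. The test over 22715 genes called 2 (0.0088%), and 160 had an unadjusted p under 0.05. The 2 were Cstdc2, a cystatin-related gene, and Ly6g5b, of the Ly6 family. Cstdc2 was at 129 CPM in mouse 39 and at a median of 0.388 CPM in DBA/2J, and Ly6g5b at 45 CPM and a median of 0.337 CPM, against at most 2.6 and 1.62 CPM in the other strains. That library also held the epididymis genes Lcn8 (207 CPM) and Rnase10 (95 CPM). Neither gene was called in this test without that library, and Cstdc2 was then lower in DBA/2J than in the other strains over all diets (log2 difference -1.10, adjusted p = 0.0133). Brinp2 stood in DBA/2J at 37 and 49.9 CPM on the American diet, 34.3 and 49.1 CPM on the Mediterranean diet, 41.9 and 45.2 CPM on the vegetarian diet, 32.1 and 32.4 CPM on the vegan diet. Cfd stood at 707 and 771 CPM on the American diet, 587 and 666 CPM on the Mediterranean diet, 1089 and 1102 CPM on the vegetarian diet, 594 and 1288 CPM on the vegan diet. Ccl2 stood at 53.7 and 89.8 CPM on the American diet, 60.7 and 76.8 CPM on the Mediterranean diet, 41 and 71.6 CPM on the vegetarian diet, 28.3 and 78 CPM on the vegan diet. Each diet's DBA/2J pair lay above all 6 other libraries of that diet in Brinp2.

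The same strain difference was set against that in the other depots and tissues of these mice. Of the 30 named genes with the largest differences, 27 of 30 were called with the same sign in subcutaneous fat, 21 of 30 in brown fat, 19 of 30 in quadriceps and 14 of 24 tested in liver. Over all genes the share called in DBA/2J against the mean of the other strains was 44.2% in subcutaneous fat, 33.7% in brown fat, 14.7% in quadriceps and 25.5% in liver. Of the 1398 genes apart in visceral fat, 844 of 1362 tested were called with the same sign in subcutaneous fat and 40 with the other sign. In brown fat these counts were 887 and 26 of 1257, in liver 355 and 92 of 1097, and in quadriceps 298 and 116 of 1217. Libraries of different tissues come largely from the same mice.

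The difference between depots was tested itself over 64 libraries each, as the DBA/2J difference in visceral fat minus that in the other depot. It passed for 4929 of 24468 genes (20.1%) against subcutaneous fat and for 1581 of 23085 (6.85%) against brown fat. The difference was positive in 2193 and negative in 2736 genes against subcutaneous fat, and positive in 758 and negative in 823 against brown fat. In limma on the TPM scale these splits were 3444 and 435 against subcutaneous fat, and 994 and 271 against brown fat. With the mouse as a block the counts were 2654 (29 mice with both depots) and 1173 (30 mice), of which 2406 and 1022 were also called without it. Against subcutaneous fat, the 4 smallest p were in Tmem221, a membrane protein, Orm3, an acute phase glycoprotein, Bst1, and Prrx1, a mesenchymal transcription factor. Orm3 was at 39.3 to 87 CPM (median 75.3) in DBA/2J libraries, against 5.19 to 39.7 CPM (median 13.8) in the others in visceral fat (log2 difference 2.41, adjusted p = 1.14e-11), whereas in subcutaneous fat it did not pass (log2 -0.05, adjusted p = 0.881), and the depots differed by 2.50 (SE 0.306, adjusted p = 5.25e-07). Prrx1 was at 90.4 to 121 CPM (median 105) in DBA/2J libraries, against 18.8 to 66.4 CPM (median 37.4) in the others (log2 difference 1.42, adjusted p = 2.67e-08), and the depots differed by 1.61 (SE 0.204, adjusted p = 1.12e-06). For Bst1 the depots differed by 2.65 (SE 0.325, adjusted p = 5.25e-07). Tmem221 was higher in visceral fat (log2 difference 0.68, adjusted p = 0.00248) and lower in subcutaneous fat (log2 -2.08, adjusted p = 2.26e-08), a difference of 2.81 (SE 0.274, adjusted p = 8.96e-10).

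Against brown fat, Rufy4 was higher in both depots but more so in brown fat (log2 7.18), and the depots differed by -3.16 (SE 0.287, adjusted p = 2.05e-11). Slc44a3, a choline transporter-like protein, was lower in visceral fat (log2 difference -1.42, adjusted p = 7.45e-09), and the depots differed by -1.60 (SE 0.154, adjusted p = 8.7e-11). Cdsn, an adhesion protein of skin, was lower in visceral fat (log2 difference -2.44, adjusted p = 7.83e-07) with a median of 7.42 CPM in DBA/2J and 5.07 CPM in A/J, against 133 CPM in C57BL/6J and 223 CPM in SJL. The depots differed in Cdsn by -3.61 (SE 0.357, adjusted p = 2.8e-10), and in Lhfpl6, a tetraspan membrane protein, by -0.99 (SE 0.103, adjusted p = 1.04e-09). Adrb3 was lower in both, and more so in visceral than in brown fat, where the depots differed by -1.28 (SE 0.231, adjusted p = 0.000147). By lists, the collagen and matrix genes were higher in 21 of 29 in subcutaneous fat and 23 of 29 in brown fat (background 24.4% and 19.3%). Cell cycle genes were higher in 0 of 20 in subcutaneous fat and 19 of 20 in brown fat. Interferon-stimulated genes were lower in 19 of 34 in subcutaneous fat and 3 in brown fat (background 19.8% and 14.4%), higher in 1 in subcutaneous fat and 9 in brown fat (background 24.4% and 19.3%), and higher in 20 of 34 in liver (background 14.2%). The difference between depots was tested gene by gene: Ccnb1 differed by 1.48 (SE 0.368, adjusted p = 0.00465) from subcutaneous fat and Oasl2 by -1.10 (SE 0.193, adjusted p = 0.000102) from brown fat.

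**Figure D5:**
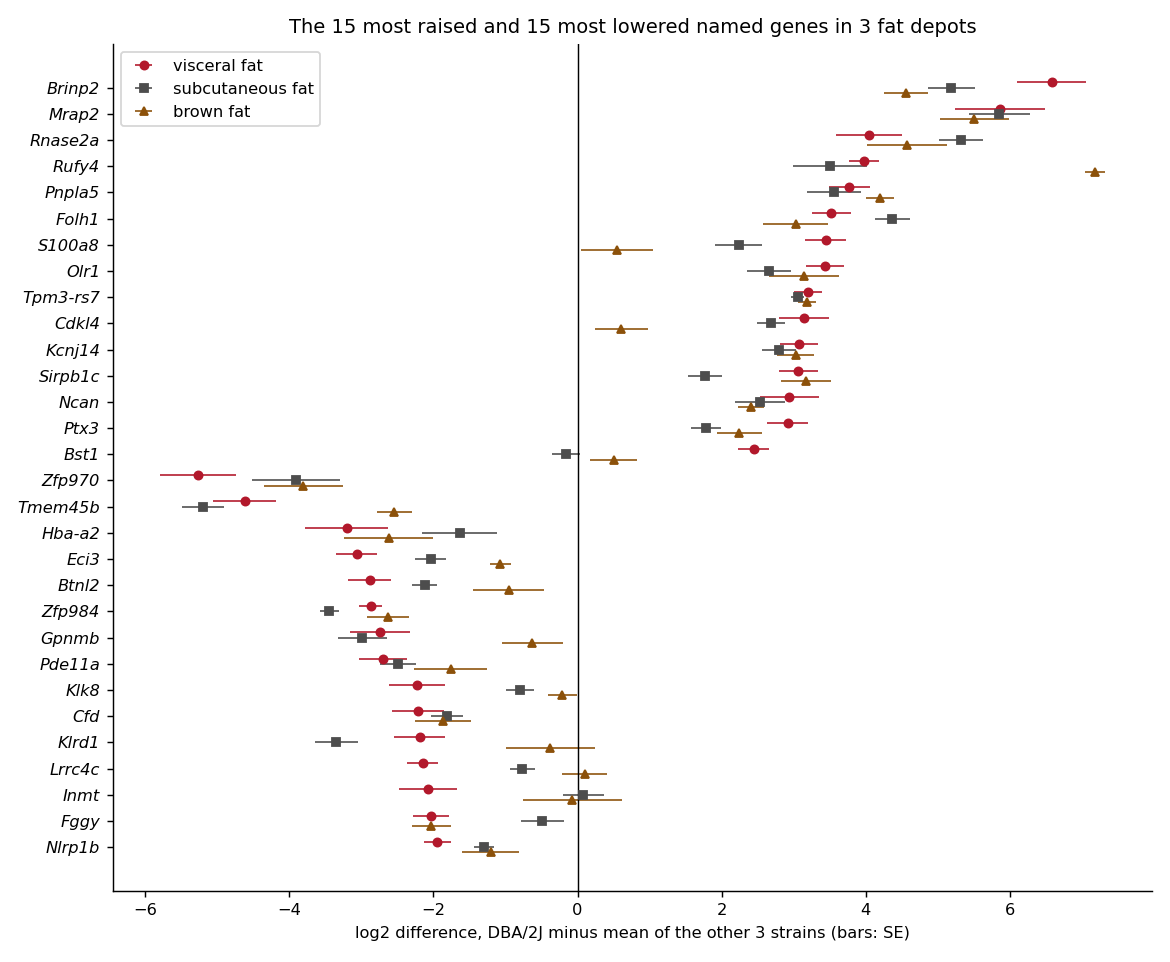
Log2 difference between DBA/2J and the mean of the other strains in visceral (circles), subcutaneous (squares) and brown fat (triangles) for the 30 named genes with the largest differences in visceral fat; bars are SE. Brinp2, Mrap2 and Tpm3-rs7 were raised in all 3 depots, Bst1 stood near 0 in subcutaneous fat, and Rufy4 was raised most in brown fat.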

How the data were processed

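The authors deposited estimated counts per Ensembl gene, which are fractional, and a table of TPM. Per the series design text and the submitters' processing notes, reads were checked with FastQC, trimmed with Trim Galore, aligned to GRCm39 with HISAT2 (mismatch penalty relaxed outside C57BL/6J) and counted with HTSeq, with multiply aligned reads split. The sources used here do not give versions, annotation release, strand setting or how TPM were made. Of the non-zero deposited counts 74.4% were whole (tolerance 1e-06), and counts were rounded for the tests. Names and positions came from GENCODE vM39 (GRCm39), which held 56236 of 56980 identifiers.

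The 32 visceral fat libraries were fitted together with strain (4 levels) and diet as terms. The tool was edgeR 4.0.16 in R 4.3.3, with filterByExpr (minimum count 10, minimum total 15), TMM scaling, its quasi-likelihood F-test and Benjamini-Hochberg adjustment over all genes tested at 0.05. The depot comparisons held 64 libraries each. Also run were DESeq2 1.42.0, limma 3.58.1 on log2(TPM + 1) where genes averaged 1 TPM or more, edgeR with RLE factors or unfiltered, fits with libraries left out, and Alb or Foxj1 as a covariate. The edgeR script was tested on simulated data. Figures were drawn with matplotlib 3.10.9 in Python 3.11.15.

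The same mouse number in 2 tissues is the same animal. Over mice with both depots the median correlation of a mouse's deviations from the group means was 0.0586 between visceral and subcutaneous fat and 0.0493 between visceral and brown fat. Single mice ran from -0.546 to 0.533 (13 of 29 over 0.1) and from -0.205 to 0.738 (11 of 30 over 0.1). The fits with the mouse as a block are given beside the depot counts. The printed SE and adjusted p of depot differences are from the fits without the block.

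Counts set the depth, 20.5 to 54.8 M per visceral library, and CPM under 1 rest on few reads. The comparison, its genes and its lists were chosen with earlier results of these data known. The text names the 15 genes in each direction with the largest log2 difference among those with a mean of at least 1 CPM, an assigned name, and calls of 1 sign in all 4 contrasts, which also held without the 11 libraries. It also names up to 4 members of each list with the smallest adjusted p, all 15 genes with known variants, the 4 genes with the smallest p of each difference between depots or diets that reach a mean of 1 CPM, and markers. Adipoq, Pparg, Plin1, Lep, Fasn, Apoe, Rbp4, Trf, Pdgfra, Cxcl9, Cd79a, Oas1a, Bmal1, Lcn8, Rnase10, the collagen genes that did not pass, the genes of the runs and other genes outside that rule were chosen after their values were seen.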

Additional observations from a re-analysis of the deposited data

Results flagged for a closer look

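In 20 of 131 genes examined in the 8 DBA/2J libraries, 1 library stood apart from the other 7 by a gap large against the range (Dixon's test at the 95% level), and chance flags about 1 in 20 groups. Over all 4 strains 87 of 524 such groups were flagged, so these gaps were not particular to DBA/2J. In the other strains many flags fell on the same few libraries, among them SJL mice 50 and 57 and A/J mice 24 and 25. In mouse 39, on the Mediterranean diet, the epididymis genes Adam7 (142 CPM), Lcn8 (207 CPM) and Rnase10 (95.0 CPM) were high together with Cstdc2 (129 CPM), Ly6g5b (45.0 CPM) and Lcn2 (261 CPM). Mouse 40, also on the Mediterranean diet, was the highest in Rnase2a (249.5 CPM), Folh1 (102.5 CPM), Ifi202b (93.8 CPM) and Ccnb1 (7.94 CPM). Mouse 48, on the vegan diet, was the highest in Pck1 (1473 CPM), Tef (106 CPM) and Lrrc4c (3.08 CPM) and the lowest in Fabp5 (159.9 CPM) and Fgf13 (35.8 CPM). Mouse 34, on the American diet, was the highest in 4 genes that were otherwise near or below 1 CPM in DBA/2J, namely Klrd1 (1.41 CPM), Klk8 (1.01 CPM), Trim30d (1.68 CPM) and Zfp984 (2.02 CPM). Mouse 42, on the vegetarian diet, was the highest in Zfp970 (3.22 CPM).

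For Klrd1, the receptor chain that DBA/2J lacks, the 1.41 CPM of mouse 34 compares with a median of 0.229 CPM over the DBA/2J libraries.

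By the test of the difference itself in edgeR, the DBA/2J difference in visceral fat differed from that in subcutaneous fat for 53 of the 131 genes with values in the text (20.1% over all genes), and from that in brown fat for 36 (6.85% over all genes), of which 38 and 28 were also called with the mouse as a block. For 11 of these the difference between depots is described above. Visceral minus subcutaneous fat, the log2 differences were 2.81 in Tmem221, 2.65 in Bst1, 2.50 in Orm3, 1.61 in Prrx1 and 1.48 in Ccnb1. Visceral minus brown fat, they were -3.61 in Cdsn, -3.16 in Rufy4, -1.60 in Slc44a3, -1.28 in Adrb3, -1.10 in Oasl2 and -0.986 in Lhfpl6. All 11 were also called with the mouse as a block. The 131 genes include some chosen for the smallest p in these same tests or for large visceral differences, so the counts of 53 and 36 are partly set by that choice. The DBA/2J difference varied between diets in Cstdc2 and Ly6g5b (both adjusted p = 0.0218), the 2 genes that were high in mouse 39.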

How the results depend on the processing

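Of 6212 genes called against the mean of the other strains, 6114 were also called with RLE size factors and 6186 with DESeq2, which called 7233. Leaving out each of the 32 visceral libraries in turn gave 5232 to 6990 against the mean, 3534 to 5044 against C57BL/6J, 3645 to 4972 against A/J, 5117 to 6465 against SJL, and 1059 to 1695 genes apart. Leaving out each of the 8 DBA/2J visceral libraries gave 3925 to 4732 against subcutaneous fat and 1287 to 1489 against brown fat. The lowest count against the mean came without DBA/2J mouse 40 and the highest without SJL mouse 50. The highest count against A/J came without A/J mouse 25. Without mice 20 and 40, which gave the deepest libraries and were left out after the data were seen, 5046 were called. Without the 9 Alb-rich libraries 2831 genes were called against C57BL/6J (4350 with them) and 808 were apart (1398 with them). Without all 11 libraries 3637 were called against SJL (6050 with them) and 835 were apart. With Foxj1 as a covariate 3244 were called against the mean, 2410 against C57BL/6J, 3005 against SJL and 753 were apart. In limma on the TPM scale 2631 were called against A/J (4296 in edgeR). With the mouse as a replicate block 2654 genes differed between visceral and subcutaneous fat, against 4929 without it, and 1173 against 1581 for brown fat; it changed no call of the 11 genes described. The fits with fewer libraries also have less power, and the cause of the other shifts was not tested.

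The diet count of 2 in edgeR was 1 with no filter, 3 in DESeq2, and 0 in limma, without mouse 39, without mice 39 and 50, without the Alb-rich libraries and without all 11. With 1 library left out it ran from 0 to 7. It was 7 without DBA/2J mouse 40, 1 without DBA/2J mouse 34 or C57BL/6J mouse 8, and 0 without DBA/2J mice 33, 39, 42, 43, 45 or 48, A/J mice 22 or 24, SJL mice 53 or 54 or C57BL/6J mouse 7.

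Arnt, the partner of the Ah receptor, not described above, turned to a log2 difference of 0.067 in limma on the TPM scale, against -0.17 in edgeR. Without mouse 39, Cstdc2 turned to -1.10 and Rnase10 to -2.59, and without mice 39 and 50 to -1.13 and -2.63; Cstdc2 was at -1.32 without the 11 libraries. With each library left out in turn, Cstdc2 ran from -1.10 to 2.85 and Rnase10 from -2.59 to 3.83. Genes of the text that lost their call did so with Foxj1 as a covariate (Apoe, Cox5b, Lcn2, Ltf, Ndufb8, Nnt, Ppara, Rbp4, Thrsp, Trf, mt-Cytb), in limma on the TPM scale (Adipoq, Cox5b, F3, Ifit3b, Insr, Kdr, Ndufb8, Oas1a, Oasl2, Ppara, Srebf1, mt-Cytb), or without Alb-rich libraries (Adgre1, Foxj1, Insr, Ppara, Trf). Ppara also lost it with Alb as a covariate, and Tmem221 and Foxj1 with strain as 2 levels. Of genes that did not pass, Lep passed in DESeq2, limma and the 16-cell model, Fn1 in limma, without the Alb-rich libraries and without SJL mouse 57, Fasn without the Alb-rich libraries, and Ahr in the 16-cell model and without C57BL/6J mouse 9. Adam7, Lcn8, Cstdc2 and Ly6g5b passed as higher in DESeq2.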

Other observations

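Of 23 genes of lipolysis and the lipid droplet 4 were higher and 4 lower in DBA/2J, shares near those over all genes (15% higher and 12.4% lower), or 6 and 2 on the TPM scale. Beside Adrb3, the phosphodiesterase Pde3b, through which insulin restrains lipolysis, was lower, at 133 to 203 CPM (median 159) in DBA/2J libraries, against 143 to 400.4 CPM (median 269.8) in the others (log2 difference -0.76, SE 0.145, adjusted p = 0.000278). Hilpda, a hypoxia-induced droplet protein that restrains the main triglyceride lipase, was higher, at 23.8 to 49.7 CPM (median 38.5) in DBA/2J libraries, against 7.04 to 47.2 CPM (median 16) in the others (log2 difference 0.99, SE 0.225, adjusted p = 0.00165), and Plin3, a droplet coat protein, had a median of 93.2 CPM in DBA/2J, against 79.2 CPM in the others (log2 difference 0.26, adjusted p = 0.00803). The groups overlapped in these 3 genes.

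Of 26 complement genes 2 were higher and 5 lower (on the TPM scale 5 and 4), near the shares over all genes (15% and 12.4%). Cfd was joined by C2, a protease of the classical pathway, at 38.7 to 63.9 CPM (median 45.6) in DBA/2J libraries, against 51.1 to 246 CPM (median 107) in the others (log2 difference -1.16, SE 0.156, adjusted p = 2.68e-06). Of 19 genes of fat growth 8 were higher and 3 lower (background 15% and 12.4%). Fgf13, an intracellular member of the fibroblast growth factor family, was at 35.8 to 59.6 CPM (median 53.8) in DBA/2J libraries, against 1.83 to 79.6 CPM (median 6.79) in the others (log2 difference 2.35, SE 0.306, adjusted p = 1.99e-06), and Fgf1, a secreted one that bears on fat remodelling in mice, had a median of 212 CPM in DBA/2J, against 155 CPM in the others (log2 difference 0.66, adjusted p = 0.00342). For Fgf13 the highest other library of each diet, at 43.2 to 79.6 CPM, lay within or above the DBA/2J range over all diets. Pla2g2e, a secreted phospholipase, was lower, with a median of 2.36 CPM in DBA/2J, against 7.3 CPM in the others (log2 difference -1.25, adjusted p = 0.00175). Of 21 retinoid genes 6 were higher and 4 lower (background 15% and 12.4%), and the one with the smallest p, Cyp26b1, which breaks down retinoic acid, was at 1.41 to 4.1 CPM (median 2.45) in DBA/2J libraries, against 2.47 to 40.6 CPM (median 10.5) in the others (log2 difference -2.05, SE 0.442, adjusted p = 0.00106).

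Of 23 lysosome and autophagy genes 9 were higher and 0 lower (background 15% and 12.4%), and 4 were higher without the 11 libraries. On the TPM scale 17 were higher, where 4918 of 19547 genes were higher over all. Gusb, a lysosomal glucuronidase, was at 113 to 156 CPM (median 137) in DBA/2J libraries, against 58.7 to 139 CPM (median 91.2) in the others (log2 difference 0.54, SE 0.0942, adjusted p = 0.000109). Atp6v1a, a subunit of the pump that acidifies lysosomes, had a median of 135 CPM in DBA/2J, against 107 CPM in the others (log2 difference 0.37, adjusted p = 0.000213).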
